A study of Glycine max with 4 samples.

Results

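A set of 190 soybean genes responded to drought in opposite directions in the leaves of a drought-susceptible and a drought-tolerant line. They were found among 54175 gene models whose levels the authors gave as FPKM, a read number scaled to the length of the transcript and the depth of the library. After 1 was added to every FPKM, a gene was taken when, in each line separately, the 3 drought libraries and the 3 control libraries did not overlap and their means lay at least 2-fold apart, with the direction in one line opposite to that in the other. Of the 190 genes, 141 were higher under drought in Pana and lower in PI 567690, and 49 were lower in Pana and higher in PI 567690. The members were selected on the drought and control FPKM of both lines, so their drought ratios are a description and carry no test.

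Pana is the line labelled drought susceptible and PI 567690 the line labelled drought tolerant. The lines contrast in canopy wilting. Plants were grown in pots of soil and sand. Water stress was imposed for 15 days from the V5 vegetative stage, and leaves were taken at the R2 flowering stage, from stressed plants and from plants of the control condition. Each of the 4 combinations of line and condition is represented by 3 libraries, which the study calls biological replicates. How many plants went into a library is not given in the sources used here, so the spread between libraries is that of these samples. With 1 line of each kind, tolerance cannot be told apart from any other difference between the lines. In whole leaves, fewer cells of a type and less RNA per cell cannot be told apart either.

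Leaves that lose water accumulate abscisic acid, which closes the stomata, switches on protective proteins such as dehydrins and late embryogenesis abundant proteins, and restrains growth and photosynthesis. Soybean lines differ in how fast their canopy wilts when the soil dries, and slow wilting is used by breeders as a sign of water conservation. A gene whose response has opposite signs in 2 lines is a case of an interaction between genotype and environment. The soybean genome is an ancient polyploid in which many genes have close copies, and reads from such copies can be assigned to either one. The identifiers of these gene models matched none of the names in the reference table used here, so the genes are given by identifier without a function, and the leaf label was not checked against marker genes. For 188 of the 190 genes the first digits after "Glyma" give the chromosome, and the other 2 lie on a scaffold.

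The Pana drought libraries stood apart from each other, which bears on every drought value in that line. On log2(FPKM + 1) over all genes, Pana drought 3 correlated best with PI 567690 control 1 (r = 0.966) and with its own group at 0.851 to 0.929. Pana drought 1 correlated best with PI 567690 drought 1 (r = 0.956), and with its own group at 0.851 to 0.946. Among the controls, Pana control 1 stood apart. It correlated with its own group at 0.886 to 0.911, against r = 0.977 between Pana control 2 and 3. It was listed at 0 for 15657 genes, more than any other library. PI 567690 drought 2 and 3 were close to each other (r = 0.995), while PI 567690 drought 1 correlated best with Pana drought 2 (r = 0.966). For each library in turn, genes were taken that separated the other Pana libraries from the other PI 567690 libraries by at least 2-fold. Of these genes, 48 of 134 (35.8%) were at or near the level of the other line in Pana drought 1. The same held for 24 of 103 (23.3%) in Pana drought 3, 12 of 99 (12.1%) in PI 567690 drought 1 and at most 4.88% in each of the other 9 libraries. Mixing or exchange of material between libraries was not tested, and on these values it cannot be told apart from an uneven drought response, so the drought values of Pana in particular hold for the libraries as labelled. Counts of members without these libraries are given with the results. Depth, read from the steps between low FPKM values, ran from 48.3% to 100% of that of the deepest library, Pana drought 3.

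Genes with opposite responses were fewer than genes with a shared response. By the same rule, 548 genes were higher under drought in both lines and 141 were lower in both. In Pana, 1886 genes (3.48% of 54175) were higher and 731 (1.35%) were lower under drought. In PI 567690, 3371 genes (6.22%) were higher and 2910 (5.37%) were lower. The 141 genes higher in Pana and lower in PI 567690 made up 7.48% of the Pana list of higher genes. Beside this, 5.37% of all genes were lower in PI 567690, and genes higher in both lines made up 29.1% of that list. The 141 were 4.85% of the PI 567690 list of lower genes, beside the 3.48% of all genes that were higher in Pana. The 49 genes with the other pattern made up 6.7% of the Pana list of lower genes, beside the 6.22% of all genes that were higher in PI 567690. They were 1.45% of the PI 567690 list of higher genes, beside the 1.35% of all genes that were lower in Pana. The shares over all genes count 54175 models, of which 32697 reached 1 FPKM in 3 or more libraries, as all members did. Of the 548 genes higher in both lines, 544 were among these 32697. Shares over the 32697 alone were not counted and can lie higher. The values above therefore show neither an excess nor a lack of members. None of these shares was tested. The number of members depended on single Pana libraries. Leaving out a library also makes the demand of no overlap easier to meet, so a count can rise for that alone. Without Pana drought 1 there were 326 genes higher in Pana and lower in PI 567690, which held 133 of the 141, and without Pana drought 3 there were 97, which held 85. With both left out, the count was 158, again with 85 of the 141. Without PI 567690 drought 1 it was 139, with 123 of the 141. Without Pana control 1 it was 207, with 132 of the 141.

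**Figure D1:**
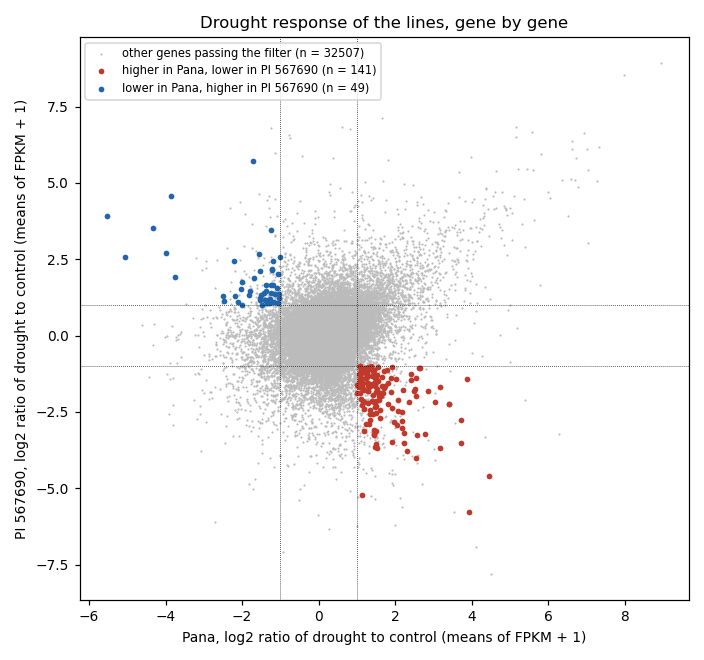
Each point is a gene, placed by its log2 ratio of drought to control (means of FPKM + 1) in Pana on the x axis and in PI 567690 on the y axis, with dotted lines at 2-fold. Red points are the 141 genes higher in Pana and lower in PI 567690, blue points the 49 genes with the opposite signs, and grey points the other genes that reached 1 FPKM in 3 or more libraries.

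The genes higher in Pana and lower in PI 567690 started from very different control levels in the 2 lines and were closer under drought. Over the 141 genes, the median of the group mean was 0.773 FPKM in Pana controls and 11.1 FPKM in PI 567690 controls. Under drought it was 4.1 FPKM in Pana and 2.4 FPKM in PI 567690. The quartiles of the genes lay at 0.27 and 1.37 FPKM in Pana controls and at 7 and 23.6 FPKM in PI 567690 controls. In Pana controls, 69 of the 141 genes were under 1 FPKM in all 3 libraries, and 20 were so in PI 567690 drought. The median log2 ratio of drought to control was 1.48 in Pana and -1.78 in PI 567690, beside 0.32 and 0.22 over the 32697 genes that reached 1 FPKM in 3 or more libraries. All 190 members passed that filter. The change was at least 4-fold in both lines in 21 of the 141 genes, and it was larger in PI 567690 in 93.

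The 49 genes lower in Pana and higher in PI 567690 mirrored this and were expressed at higher levels. Their median group mean was 37.6 FPKM in Pana controls, 8.98 FPKM in Pana drought, 1.95 FPKM in PI 567690 controls and 13.4 FPKM in PI 567690 drought. Averaged over the 12 libraries, the median member reached 18.6 FPKM, against 5.36 FPKM for the 141 and 5.74 FPKM for all genes passing the filter. The median log2 ratio was -1.42 in Pana and 1.45 in PI 567690. In 6 of the 49 the change was at least 4-fold in both lines, and in 22 it was larger in PI 567690.

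**Figure D2:**
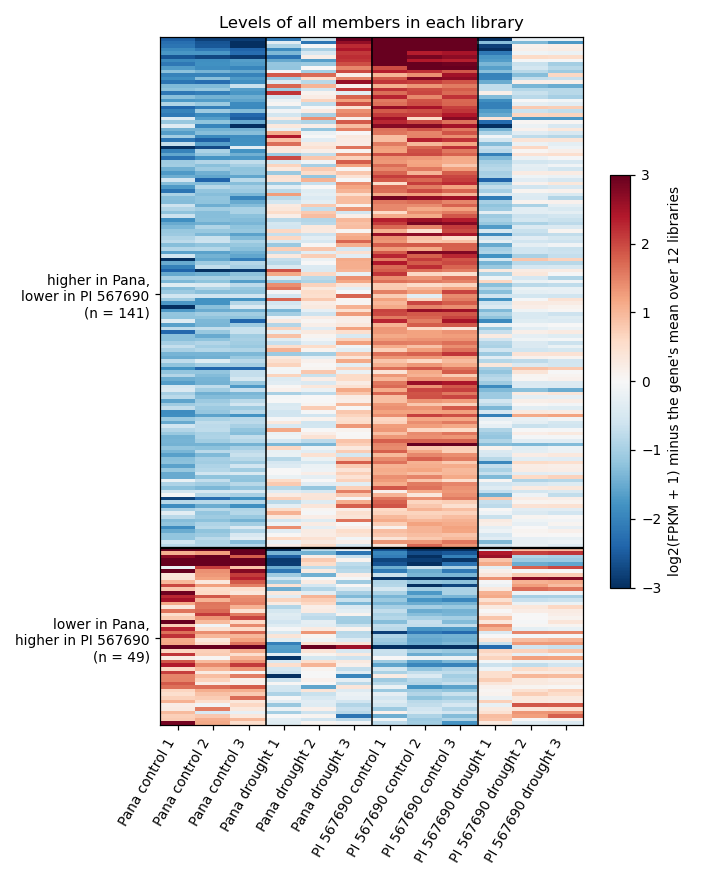
Rows are the 190 genes, columns the 12 libraries, and colour gives log2(FPKM + 1) minus the gene's mean over the 12 libraries, from -3 in blue to 3 in red. Above the black line, the group mean is lowest in Pana controls in 135 of 141 genes and highest in PI 567690 controls in 137, and below it is highest in Pana controls in 41 of 49 genes and lowest in PI 567690 controls in 43.

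Glyma17g31330 and Glyma08g18200 led the set higher in Pana and lower in PI 567690 when genes were ranked by the smaller of their changes in the 2 lines. Glyma17g31330, on chromosome 17, stood at 3.1, 2.24 and 2.15 FPKM in the Pana controls and at 4.14, 13.4 and 208 FPKM in the Pana drought libraries. In PI 567690 it stood at 334, 355 and 288 FPKM in controls and at 1.05, 18 and 18.3 FPKM under drought. The groups did not overlap in either line, yet Pana drought 3 was far above the other 2 Pana drought libraries and close to the PI 567690 controls. Its group mean changed 21.8-fold in Pana, from 2.5 ± 0.527 to 75.2 ± 115 FPKM (SD, n = 3 libraries), and 24.3-fold in PI 567690, from 326 ± 34.3 to 12.4 ± 9.86 FPKM, with folds taken on FPKM + 1. Glyma08g18200, on chromosome 8, stood at 7.96, 6.14 and 3.18 FPKM in the Pana controls and at 32.9, 8.62 and 267 FPKM in Pana drought. Its PI 567690 values were 1432, 472 and 667 FPKM in controls and 16.6, 15.9 and 12 FPKM under drought, a 54.2-fold difference, against 15.3-fold in Pana. Again Pana drought 3 was the high library, whereas the 3 PI 567690 drought libraries lay close together.

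The other 6 leading genes of this direction shared the high Pana drought 3 library. Glyma18g06063 was at 3.02, 2.11 and 0.488 FPKM in Pana controls and 8.51, 16.8 and 85.1 FPKM in Pana drought, and at 174, 165 and 153 FPKM in PI 567690 controls and 1.6, 19 and 20 FPKM in PI 567690 drought. Glyma14g15120 was at 7.27, 6.05 and 4.86 FPKM, then 7.43, 14.8 and 166 FPKM in Pana, and at 335, 335 and 271 FPKM, then 1.7, 33.8 and 35.7 FPKM in PI 567690. In both genes PI 567690 drought 1 was the lowest library of its group, and Pana drought 1 lay nearest to the Pana controls. Glyma07g29990 was at 0.994, 0.768 and 0.597 FPKM, then 1.53, 12.3 and 53.2 FPKM in Pana, and at 97.5, 84 and 74 FPKM, then 2.51, 16.6 and 15.9 FPKM in PI 567690. Glyma20g19200 was at 0.175, 0.483 and 0.602 FPKM, then 1.36, 1.42 and 18.9 FPKM in Pana, and at 42.3, 44.6 and 38.3 FPKM, then 1.02, 2.29 and 1.6 FPKM in PI 567690. All 6 PI 567690 libraries of Glyma20g19200 were tight within their condition, while 2 of its 3 Pana drought libraries were under 1.5 FPKM.

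Glyma17g13550 and Glyma05g02890 complete the 8. Glyma17g13550 was at 1.12, 1.13 and 0.461 FPKM in Pana controls, 1.84, 4.09 and 30.3 FPKM in Pana drought, 59.7, 35.9 and 39 FPKM in PI 567690 controls and 0.628, 5.6 and 5.36 FPKM in PI 567690 drought. Glyma05g02890 was at 1.14, 1.23 and 1.54 FPKM in Pana controls, 1.84, 1.56 and 34.6 FPKM in Pana drought, 88.2, 41 and 39.7 FPKM in PI 567690 controls and 1.49, 6.66 and 6.87 FPKM in PI 567690 drought. For Glyma05g02890, the highest Pana control (1.54 FPKM) and the lowest Pana drought library (1.56 FPKM) were nearly equal, and Pana drought 3 alone was far above the controls.

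Library by library, the 141 genes were less even in Pana than in PI 567690. Pana drought 3 was the highest library of its group in 92 genes, Pana drought 1 in 30 and Pana drought 2 in 19. The median log2 ratio to the Pana control mean was 1.04 in Pana drought 1, 1.14 in drought 2 and 1.94 in drought 3, and a ratio of at least 2-fold was reached by 73, 85 and 126 genes, by 40 in all 3. Pana drought 3 lay within 2-fold of the PI 567690 control mean in 84 genes, against 39 for Pana drought 1 and 38 for Pana drought 2. In PI 567690 the median log2 ratios were -2.43, -1.60 and -1.62, and 109 genes were at least 2-fold lower in all 3 drought libraries. PI 567690 drought 1 was the lowest of its group in 114 genes and lay within 2-fold of the Pana control mean in 119. These ratios were taken on FPKM + 1, where any 2 values under 1 FPKM lie within 2-fold. The median over the 141 genes was 1.04 FPKM in PI 567690 drought 1 and 0.773 FPKM for the Pana control mean. The count of 119 therefore holds genes that were near 0 FPKM in both. Between the nearest drought and control libraries, the median gap was 0.45 on the log2 scale in Pana and 1.22 in PI 567690.

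**Figure D3:**
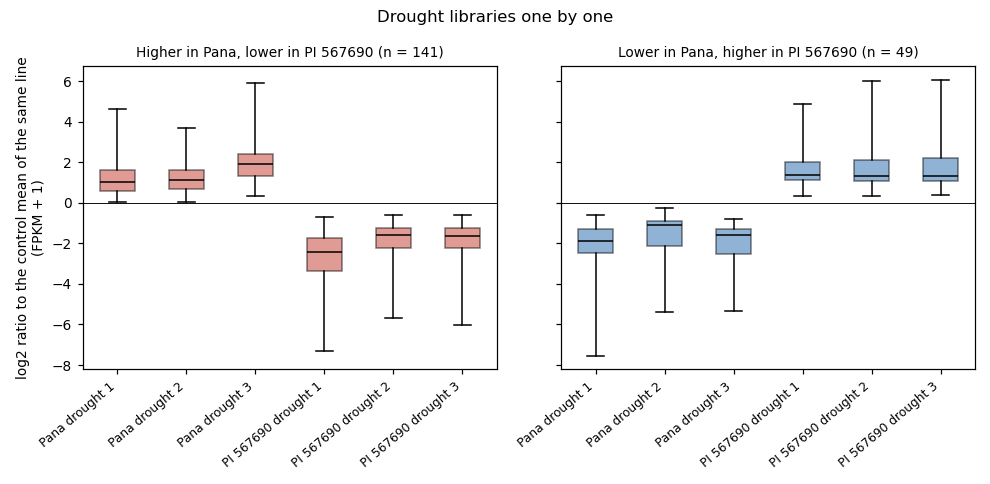
Each box gives the log2 ratio of 1 drought library to the control mean of its own line (FPKM + 1) over the 141 genes (left) or the 49 genes (right), with the median, quartiles and whiskers to the lowest and highest gene. On the left, the Pana drought 3 median of 1.94 stands above those of drought 1 and 2, and PI 567690 drought 1 is the lowest of its group at -2.43.

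The 2 genes that led the set lower in Pana and higher in PI 567690 had more even Pana drought libraries than Glyma17g31330 and Glyma08g18200. Their Pana controls were less even, with Pana control 3 the highest in both genes. Glyma02g37990, on chromosome 2, stood at 331, 233 and 821 FPKM in Pana controls and at 1.5, 10.2 and 15.5 FPKM in Pana drought. In PI 567690 it stood at 2.26, 0.607 and 0.0826 FPKM in controls and at 13.6, 36.8 and 37.2 FPKM under drought. Every Pana drought library was at least 10-fold below every Pana control, and the group mean was 46-fold lower under drought in Pana (462 ± 315 to 9.06 ± 7.07 FPKM, SD, n = 3 libraries) and was 15.3-fold higher in PI 567690 (0.982 ± 1.13 to 29.2 ± 13.5 FPKM). Glyma15g06816, on chromosome 15, stood at 16.3, 18.7 and 77.8 FPKM in Pana controls and 2.14, 2.07 and 0.826 FPKM in Pana drought. Its PI 567690 values were 1.12, 0.306 and 0.427 FPKM in controls and 43.2, 34.2 and 35.9 FPKM under drought. The 3 PI 567690 drought libraries of this gene lay within the range of the Pana controls, and the 3 Pana drought libraries lay close to the PI 567690 controls.

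A further 3 genes of this direction had Pana controls of 61.4 FPKM or more. Glyma02g39320 was at 115, 523 and 61.4 FPKM in Pana controls, 2.23, 19.8 and 10 FPKM in Pana drought, 3.27, 1.15 and 3.41 FPKM in PI 567690 controls and 106, 8.55 and 8.07 FPKM in PI 567690 drought. Glyma10g30130 was at 138, 201 and 133 FPKM, 0.4, 16.5 and 10 FPKM, 0.505, 0.441 and 0.333 FPKM, and 17.3, 3.79 and 3.81 FPKM in the same order. Glyma14g37440 was at 286, 1032 and 268 FPKM, 2, 30.9 and 11.9 FPKM, 2.59, 1.47 and 3.67 FPKM, and 47.2, 6.73 and 6.43 FPKM. In these genes PI 567690 drought 1 was above drought 2 and 3, and Pana drought 1 was the lowest of the Pana drought libraries.

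Glyma15g06090, Glyma12g10620 and Glyma19g32620 complete the 8. Glyma15g06090 was at 125, 17.6 and 47.7 FPKM in Pana controls, 0.632, 7.58 and 3.12 FPKM in Pana drought, 0.678, 1.54 and 0.656 FPKM in PI 567690 controls and 6.98, 5.98 and 6.09 FPKM in PI 567690 drought. Glyma12g10620 was at 4.99, 10.6 and 18.9 FPKM, 1.24, 0.717 and 4.43 FPKM, 1.94, 0.811 and 0.798 FPKM, and 5.04, 6.97 and 6.95 FPKM in the same order. Glyma19g32620 was at 1.42, 10.6 and 3.98 FPKM in Pana controls, 0, 0.616 and 0.479 FPKM in Pana drought, 0, 0.721 and 0.392 FPKM in PI 567690 controls and 1.24, 8.34 and 9.78 FPKM in PI 567690 drought. It rested on few reads, with 6, 58 and 28 in the Pana controls and 0, 4 and 4 in Pana drought.

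**Figure D4:**
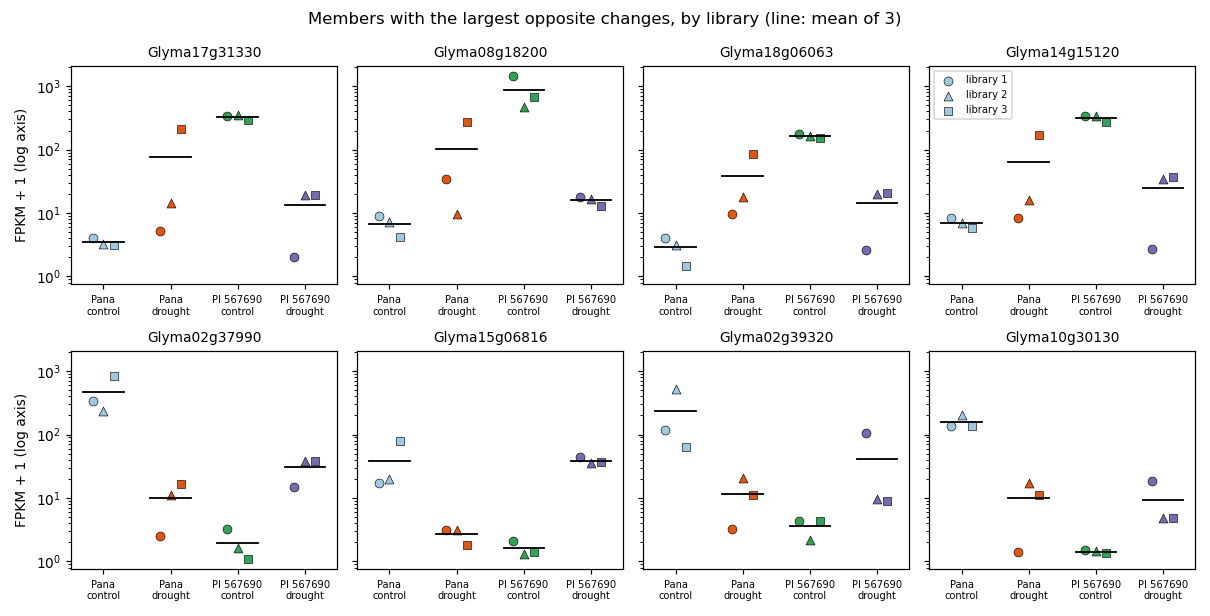
FPKM + 1 on a log axis in every library for the 4 highest ranked genes of each direction, with the horizontal line at the mean of the 3 libraries and symbols for library 1, 2 and 3. In the upper row the square of Pana drought 3 stands above the other Pana drought symbols, as for Glyma17g31330 at 208 FPKM against 4.14 and 13.4.

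Over the 49 genes, the Pana drought medians of the log2 ratio to the control mean were -1.88, -1.11 and -1.57, and a ratio of at least 2-fold was reached by 46, 30 and 46 genes, by 29 in all 3 libraries. Pana drought 2 was the highest of its group in 33 genes. In PI 567690 the medians were 1.4, 1.33 and 1.33, and 32 genes were at least 2-fold higher in all 3 libraries. The count of 49 moved most with single Pana libraries, to 115 without Pana drought 2, 97 without Pana control 1 and 82 without Pana control 2. It was 59 without Pana drought 1 and 52 without Pana drought 3, each with 41 of the 49. With both left out it was 42, with 30 of the 49. The count was 69 without PI 567690 control 1, 62 without PI 567690 drought 1, and from 45 to 51 without any other single PI 567690 library. With a library left out, the groups overlap less easily, so a count can rise for that alone. The largest PI 567690 change of this direction was in Glyma04g36480, at 2.47, 0.804 and 1.64 FPKM in controls and 65, 169 and 176 FPKM under drought, where Pana went from 33.5, 58.9 and 129 FPKM to 16.1, 24.8 and 24.1 FPKM. Glyma04g36480 was chosen after its values were seen.

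The lines were apart in more of these genes under control than under drought, as they were over all genes. Over all 54175 genes, PI 567690 was above Pana in 3701 and below it in 1730 under control, against 508 and 250 under drought. Because the rule forces the ratio between the lines to shift at least 4-fold from control to drought, a difference in at least one condition is built in. By the same criterion of no overlap and 2-fold means, PI 567690 was above Pana under control in 141 of the 141 genes higher in Pana and lower in PI 567690, against 3701 of all genes (6.83%). The log2 ratio of PI 567690 to Pana under control ran from 1.18 to 6.99 with a median of 2.69. Under drought, PI 567690 was below Pana in 22 of them (15.6%), against 250 of all genes (0.461%), and above it in none, and the log2 ratio ran from -2.71 to 0.70 with a median of -0.78. In 119 genes the lines were therefore apart under control and not under drought, although the order of the means was reversed in 129.

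For the 49 genes of the other direction, PI 567690 was below Pana under control in 46 (93.9%), against 1730 of all genes (3.19%). Under drought PI 567690 was above Pana in 15 (30.6%), against 508 of all genes (0.938%), and below it in 1 (2.04%). The median log2 ratio between the lines was -2.51 under control and 0.72 under drought, and the order of the means was reversed in 42. The gene below in both conditions was Glyma18g17190, at 25.7, 12.6 and 20.9 FPKM in Pana controls and 6.26, 9.45 and 4.68 FPKM in Pana drought, against 0.72, 0.313 and 0.286 FPKM and 2.27, 2.03 and 2.39 FPKM in PI 567690. In 3 genes, Glyma06g01370, Glyma06g01380 and Glyma14g05730, the lines were apart under drought and not under control. Glyma06g01380 was at 69.2, 61.5 and 120 FPKM in Pana controls and 58.9, 52.2 and 51.1 FPKM in PI 567690 controls, then at 6.74, 40.5 and 37.8 FPKM in Pana drought and 94.1, 139 and 137 FPKM in PI 567690 drought. These genes were named after their values were seen.

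The average of the 2 conditions was also compared between the lines. It was tested with limma on log2(FPKM + 1) over 32697 genes, with Benjamini-Hochberg adjustment at 0.05. The contrast is orthogonal to both drought contrasts, but it is built from the same FPKM values and the same spread that chose the members. Their p-values can therefore be too small, and the counts of members called are a description, not independent support. Among all genes, 1795 (5.49%) were higher and 402 (1.23%) lower in PI 567690. Of the 141 genes, 66 were higher in PI 567690 on average and 0 lower, and of the 49, 17 were lower and 0 higher. At an unadjusted p under 0.05 the counts were 117 and 31. The median log2 difference was 1.06 for the 141, with 140 above 0, and -0.73 for the 49, with 7 above 0, beside 0.14 over all genes. Among genes that moved the same way in both lines, 35 of 544 higher under drought were higher in PI 567690 and 6 of 141 lower under drought were lower. The difference between these sets was not tested.

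Single genes varied in this test, and the p-values below can be too small for the reason given above. Glyma02g37990 was lower in PI 567690 by a log2 difference of -2.98 ± 0.51 (SE, limma adjusted p = 0.00773, from 8.47e-06 to 0.0276 over the alternatives). Glyma08g18200 was higher by 2.70 ± 0.65 (limma adjusted p = 0.0315, from 7.56e-06 to 0.0808). Glyma17g31330 missed the threshold at 2.55 ± 0.82 (limma adjusted p = 0.0896), and passed it at 3.31 without Pana drought 3 (adjusted p = 0.00413). Glyma15g06816, whose changes nearly cancel between the lines, was at -0.18 ± 0.35 (adjusted p = 0.821). Of the 190 genes 83 were called in all, which became 48 without Pana control 2, 52 without Pana drought 2, 38 and 35 without PI 567690 control 2 and 3, and 36 without either PI 567690 drought 2 or drought 3.

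Some members of the same direction were neighbours in the order of identifiers. Counting members of the same direction at most 10 gene models apart as a run, 20 of the 141 genes (14.2%) fell into 5 runs and 6 of the 49 (12.2%) into 3. The share in runs was 9.22% for the 141 genes lower in both lines and 26.8% for the 548 higher in both. A larger set has more neighbours by its size alone, so shares of sets of unlike size cannot be ranked. None of them was tested. The longest run, from Glyma06g43241 to Glyma06g43520 on chromosome 6, held 8 members in 27 gene models. Of the 13 other models there that passed the filter, 12 had the same signs, higher in Pana and lower in PI 567690. Their Pana log2 ratios ran from 0.10 (Glyma06g43350) to 0.90 (Glyma06g43490), beside a median of 0.32 over all genes passing the filter. The share of all genes with these signs was not counted. By the rule's criterion in 1 line, 13 of all 19 other models were lower under drought in PI 567690 and 0 were higher in Pana. Pana drought 2 was the highest Pana drought library for 5 of the 8 members and Pana drought 3 for 3. Glyma06g43361, for example, was at 0.763, 0 and 0.115 FPKM in Pana controls, 2.31, 3.72 and 2.02 FPKM in Pana drought, 6.52, 6.39 and 8.37 FPKM in PI 567690 controls and 0.199, 0.428 and 1.23 FPKM in PI 567690 drought. Its 3 Pana drought libraries lay close together. Neighbours with similar sequence can share reads, and these members rested on few, such as 3, 0 and 4 reads in the Pana controls and 12, 18 and 10 in Pana drought for Glyma06g43450.

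A second run of 5 members in 18 gene models lay on chromosome 12, from Glyma12g14570 to Glyma12g14900. There Pana drought 1 was the highest Pana drought library for 4 of the 5. Glyma12g14570 was listed at 0 in all 3 Pana controls, and stood at 13.3, 12.1 and 3.57 FPKM in Pana drought, 7.11, 9.42 and 22 FPKM in PI 567690 controls and 0, 0.662 and 5.14 FPKM in PI 567690 drought. The third, of 3 members in 7 gene models from Glyma12g03890 to Glyma12g03950, had Pana drought 3 highest for all 3 members. Glyma12g03890 was listed at 0 in the Pana controls, with 1.15, 1.69 and 1.7 FPKM in Pana drought, 5.84, 6.75 and 8.36 FPKM in PI 567690 controls and 0, 0.688 and 0.79 FPKM in PI 567690 drought. The remaining runs were pairs, Glyma03g31520 with Glyma03g31530 and Glyma05g02890 with Glyma05g02950 in this direction. In the other direction they were Glyma06g01370 with Glyma06g01380, Glyma14g05710 with Glyma14g05730 and Glyma17g32691 with Glyma17g32782. Chromosome 6 held 22 of the 141 genes, or 7 per 1000 gene models, chromosome 12 held 12, or 5.17 per 1000, and chromosome 15 held 1, or 0.376 per 1000. These were the extremes, and the other chromosomes held from 1.02 to 3.74 per 1000. The run of 8 members was part of the 22 on chromosome 6, and the runs of 5 and 3 part of the 12 on chromosome 12. The spread over chromosomes was not tested.

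**Figure D5:**
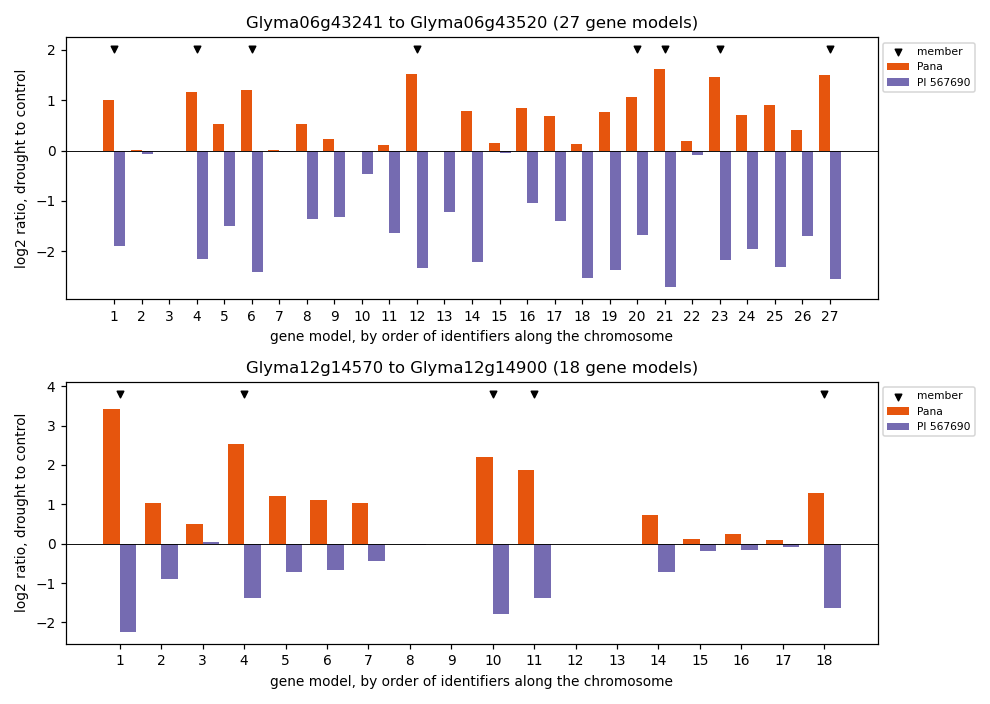
Bars give the log2 ratio of drought to control (means of FPKM + 1) in Pana and PI 567690 for every gene model of the 2 longest runs, in the order of identifiers, with triangles over the members. In the run of 27 models, bars of the models between the members mostly point the same ways as those of the 8 members. None of the models between them reaches 2-fold in Pana.

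The threshold cut through a continuous range of values. Just inside it in Pana were Glyma12g34390, with log2 ratios of 1.003 in Pana and -1.603 in PI 567690, and Glyma06g43241, with 1.006 and -1.893. Just outside were Glyma11g10260, with 0.994 and -1.537, and Glyma13g29190, with 0.994 and -1.426. In the other direction Glyma16g29650 (-1.989 and 1.007) and Glyma12g04440 (-1.492 and 1.017) lay just inside, and Glyma12g01680 (-0.994 and 1.891) and Glyma08g26830 (-0.993 and 1.153) just outside. A further 1088 genes were higher in Pana and lower in PI 567690 without overlap but under 2-fold in at least 1 line, and 276 were so in the other direction.

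Low read numbers lay behind many of the low groups. Whole reads could be recovered from the FPKM steps for 120 of the 141 genes and 35 of the 49. Over the 120, the median number of reads summed over the 3 libraries was 46 in Pana controls, 498 in Pana drought, 1236 in PI 567690 controls and 178 in PI 567690 drought. In 24 of the 120 the Pana controls held 10 or fewer reads together, and in 7 the PI 567690 drought libraries did. Over the 35, the medians were 1777, 541, 184 and 905 reads in the same order, and 3 genes had 10 or fewer reads in the PI 567690 controls. The folds of genes near 0 FPKM depend on the 1 added to each FPKM.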

How the data were processed

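RNA of soybean leaves was sequenced on an Illumina HiSeq instrument, per the labels, in 12 libraries (3 for each of 2 lines under control and drought). The values deposited by the authors are FPKM per gene model and library. The unit is read from the column layout and the values, since no header names it. Reads were handled with Cufflinks, Cuffdiff, TopHat 1.4.1 and FastQC, per the submitters' processing notes. The genome build is not given in the sources used here. None of the 54175 identifiers matched the 59048 genes of a RefSeq table (Glycine_max_v4.0), so no gene names, gene lists, leaf markers or sequences were used.

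Libraries were grouped by line and condition from the column names. Members were chosen on FPKM + 1, with no filter. The line average was tested with limma 3.58.1 (R 4.3.3, with a mean-variance trend) on log2(FPKM + 1), over genes that reached 1 FPKM in 3 or more libraries, 1 coefficient per group. The fit was also run on simulated data with independent normal noise, which holds no outlying libraries, and no result is drawn from it here. FPKM are not counts, so no count model was used. Whole reads were recovered for single members from FPKM steps, to within 0.06 reads at low numbers. Named genes are the 8 of each direction with the largest value of the smaller absolute log2 ratio of the 2 lines, the 2 nearest each side of the threshold, and runs of neighbours. The members and lists were chosen with earlier results of these data known. Alternatives changed the threshold, the added value, the scaling, filters, weights and libraries, 1 at a time.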

Additional observations from a re-analysis of the deposited data

Results flagged for a closer look

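By the rule, the drought ratio had opposite signs in the lines in each of the 141 genes and each of the 49 genes. The 3 drought libraries lay above the 3 controls in one line and below them in the other, for the libraries as labelled. The genes were chosen for this, so the difference was not tested. Of the 141, 40 were at least 2-fold higher in all 3 Pana drought libraries, and 109 were at least 2-fold lower in all 3 PI 567690 drought libraries.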

How the results depend on the processing

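The number of genes higher in Pana and lower in PI 567690 was 141. It was 416 at a 1.5-fold and 40 at a 3-fold threshold, 349 and 515 with 0.25 and 0.1 added to each FPKM, 73 with genes averaging under 5 FPKM left out, and 380 with overlap allowed. The number lower in Pana and higher in PI 567690 was 49, and became 130, 10, 85 and 112 under the same first 4 changes and 150 with overlap allowed. Leaving out 1 library gave 97 to 326 and 45 to 115. Rescaling the libraries to an equal median ratio gave 111 and 61 genes, which held 90 of the 141 and 34 of the 49. It moved the median log2 ratio of all genes from 0.32 to 0.09 in Pana and from 0.22 to -0.02 in PI 567690. Without Pana drought 1 and 3, an alternative chosen after seeing the data, the counts were 158 and 42.

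Of the 190 members 83 were called in the line average, 28 with genes averaging under 5 FPKM left out (fewer genes enter), 174 with a weight per library and 37 with PI 567690 drought 2 and 3 averaged, and 35 to 116 leaving out 1 library. Over all genes, 2197 were called, then 373, 15013 and 831 under the same changes, and 821 to 3872 leaving out 1 library. With the equal median ratio the split was 1343 higher and 535 lower, against 1795 and 402. Where not given, the cause was not tested. Deviations of same-numbered libraries from their group means correlated at over 0.1 in 5 of 18 pairs. Between the drought groups r was 0.656 and 0.608 for numbers 1 and 3 and -0.109 for number 2. Deviations within a group of 3 sum to 0, so these values are linked and do not settle whether the numbers pair the libraries. The main fit did not pair them. A library correlated best with its own number in 19 of 36 cases, each a choice among 3 numbers. With a replicate block, 91 members and 2599 genes were called. The uncalled line differences of Glyma15g06816 and Glyma19g32620 changed sign. Glyma15g06816 ran from -0.37 to 0.17 leaving out 1 library, above 0 without Pana control 3. Glyma19g32620, at 0.12 and from -0.16 to 0.48 leaving out 1 library, went to -0.02 with the equal median ratio, -0.06 with library weights, -0.16 without Pana control 1, -0.04 and -0.09 without PI 567690 drought 2 and 3, -0.06 with these averaged and -0.02 without Pana drought 1 and 3. Of 576 alternative drought log2 ratios of named genes, 19 moved by more than the spread between libraries and 0 changed sign. Since the libraries of members do not overlap, the sign was fixed in advance in every alternative except the equal median ratio. Members of low level are limited by depth, and FPKM steps give no error for them.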
